A study of Mus musculus with 6 samples.

Results

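Cytokine receptor chains of the myeloid and erythroid lineages were examined in haematopoietic stem and progenitor cells (HSPCs) from Med12 KO and control mice. The chains are encoded by 9 genes (Epor, Csf3r, Csf2ra, Csf2rb, Csf2rb2, Il3ra, Il5ra, Il6ra and Il6st) of 18193 genes named on the array. Their 15 probe sets, of 45037 tested, were all those that the platform annotation assigns to exactly 1 of these symbols. A further probe set assigned to both Csf2rb2 and Csf2rb was left out by that rule. Med12 KO cells came from Med12Flox;MxCre mice, in which Mx-Cre, a recombinase under an interferon-inducible promoter, deletes a floxed Med12 allele. Control cells came from mice whose genotype, including any Cre, the labels do not give. Both groups were of B6/129 background, and cells were taken 4 days after pI:pC, an RNA duplex that sets off interferon production. Cells were sorted from bone marrow as lineage-negative, c-Kit- and Sca1-positive, a gate that holds stem cells and multipotent progenitors. Each group had 3 arrays. The labels do not say whether each array stands for a separate animal or a pool, so each p-value reflects the spread of these samples only, which may be technical.

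These receptors have no kinase of their own. Binding of a cytokine brings receptor chains together, JAK kinases bound to the chains phosphorylate them, and STAT proteins, above all STAT5 and STAT3, carry the signal to the nucleus. Epor and Csf3r pair with themselves, whereas the receptors for GM-CSF, interleukin-3 and interleukin-5 each join a private alpha chain to a shared beta chain. Il6ra binds interleukin-6 and then recruits Il6st (gp130), a transducer shared with interleukin-11, LIF and oncostatin M.

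Each value was a probe set signal on a linear intensity scale as deposited, and groups were compared as log2(signal + 16) with limma over all probe sets. A probe set passed at a Benjamini-Hochberg adjusted p of at most 0.05. Of 45037 probe sets 343 passed (0.762%), of which 99 were higher (0.22%) and 244 lower (0.542%) in Med12 KO cells. The higher calls made up 28.9% of these, but 62.2% after median centring of each array and 43.0% after quantile normalization. The array medians were 16.5 to 21.3 in Med12 KO cells and 26.7 to 26.9 in control cells, with no overlap between the groups. Med12 was read by 1 probe set. It is not known here whether that probe set lies inside the deleted stretch, so it does not check the labels. It had 86.4 to 100.4 in Med12 KO cells and 278.6 to 837.4 in control cells (log2 difference -2.17, adjusted p = 0.0796). Kit, which the sort used, gave signals of 514.8 to 617.5 in Med12 KO cells and 805.2 to 1425.4 in control cells, with adjusted p = 0.152 for that probe set, while the other of its 2 probe sets passed as lower. Ly6a, the gene of Sca1, was not analysed here.

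Among the receptor chains, the erythropoietin receptor rose in Med12 KO cells and the shared transducer Il6st fell on 2 of its 4 probe sets. The 3 probe sets that passed were 1 of 15 higher and 2 of 15 lower, against 0.762% of all probe sets. The groups did not overlap on 10 of the 15, which were 3 higher and 7 lower in Med12 KO cells, against 20.9% of all probe sets (7.61% higher and 13.3% lower). An unadjusted p under 0.05 was found for 9 of 15, against 15.7% of all. The median log2 difference of the 15 was -0.60, against -0.07 over all probe sets. With the probe set of highest mean taken for each gene, the median of the 9 genes was 0.13, against -0.05 over all genes. The 2 counts differ in the sign of their median, and Il6st gives 4 of the 15 probe sets. The log2 differences ran from -3.18 for an Il6ra probe set to 2.01 for Epor.

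**Figure D1:**
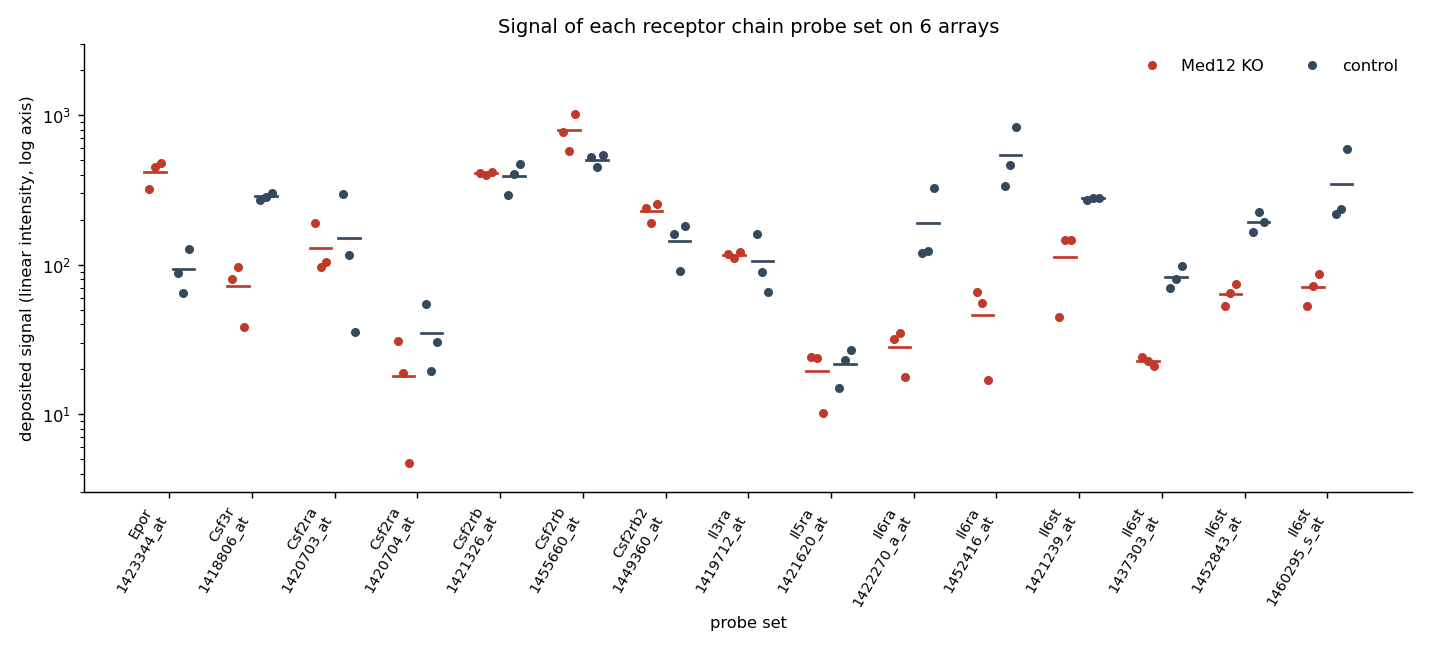
Deposited signal (linear intensity, log axis) of the 15 receptor chain probe sets on each array, with Med12 KO arrays in red on the left and control arrays in dark blue on the right, and the group mean as a bar. The Med12 KO points of Epor (321.8 to 483.1) lie above the control points, those of Csf3r, Il6ra and Il6st lie below them, and those of Csf2ra, Il3ra and Il5ra overlap them.

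Epor encodes the receptor that carries erythropoietin signals in red cell progenitors. Its probe set had signals of 321.8, 454.3 and 483.1 on the Med12 KO arrays, against 88.4, 64.8 and 127.6 on the control arrays. All 3 Med12 KO arrays lay above all 3 control arrays. The mean was 419.7 ± 86.0 in Med12 KO cells and 93.6 ± 31.7 in control cells (SD, n = 3 each). The log2 difference was 2.01 (SE 0.27, 95% interval 1.36 to 2.66; limma adjusted p = 0.0471), which is 4.03-fold on the log2(signal + 16) scale. By p-value it ranked 271 among 45037 probe sets. The size was similar without any 1 of the 6 arrays (1.81 to 2.23), but the call was lost in each case. The adjusted p was 0.107, 0.155 and 0.151 without Med12 KO replicates 1, 2 and 3, and 0.122, 0.102 and 0.0816 without control replicates 1, 2 and 3. With quantile or loess normalization of the arrays the log2 difference was 2.08 or 2.01, with adjusted p of 0.0566 or 0.0572.

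Several erythroid markers also rose on these arrays. Of 11 genes on that marker list 9 were higher and 4 passed, all higher (Car1, Add2, Rhag and Kel), against 0.352% of all genes, and the summed signal was 6629.7 to 9255.5 in Med12 KO cells and 2998.8 to 3671 in control cells. No erythroid marker was at 0 on any array. Kel and Alas2 lay under the array median on all 3 control arrays, and Slc4a1 on all 3 Med12 KO arrays. The anion exchanger gene Slc4a1 had 11.8 to 13.9 in Med12 KO cells and 23.2 to 185.8 in control cells (limma adjusted p = 0.260). That probe set was 1 of 3, whose log2 differences ran from -1.60 to 0.05, with 1 higher. The other lower gene of the list was Epb42 (log2 difference -0.22). Higher genes that did not pass included Ermap (2.42) and Alas2 (1.06). The part of these markers in the Epor result was not tested. In bulk RNA, more cells of a type and more RNA per cell cannot be told apart.

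The Epor promoter is shown because Gata1, a factor known to act through GATA sites, moved with Epor on the same arrays. Gata1 had 835.5, 860.9 and 1229.9 in Med12 KO cells, against 178.1, 309.4 and 201.3 in control cells (log2 difference 2.03, SE 0.26, adjusted p = 0.0424). Klf1, an erythroid factor that binds CACC boxes, had 1114.8, 1227.7 and 1549.2 in Med12 KO cells, against 201.8, 403.9 and 334.3 in control cells (log2 difference 2.03, SE 0.28, adjusted p = 0.0490). The groups did not overlap for either gene, but both calls were lost when any 1 array was left out. The window runs from 250 bases before to 50 bases after the RefSeq start, on the minus strand at chr9:21963527-21963826 of GRCm38.p6. Capitals in this and the following promoters mark matches on either strand to 4 motifs. The letters searched for the Gata1 family were AGATAA, those for PU.1 were GAGGAAG, those for C/EBP factors were TTGCNNAA, and those for Sp1 were CCGCCC. No matches overlap in the 4 windows shown.
Epor: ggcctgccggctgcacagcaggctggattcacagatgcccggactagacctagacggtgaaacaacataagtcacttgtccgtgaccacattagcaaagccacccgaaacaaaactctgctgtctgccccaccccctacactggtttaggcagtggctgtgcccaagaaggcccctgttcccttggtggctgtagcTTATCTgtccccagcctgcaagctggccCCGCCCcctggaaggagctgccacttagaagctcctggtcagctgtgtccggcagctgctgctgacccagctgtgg
The AGATAA match lies on the opposite strand, read as TTATCT, with its first printed base at position -54 from the start, and the CCGCCC match begins at position -26. AGATAA was present in 11.2% of 32851 promoter windows of this length, GAGGAAG in 13.6%, TTGCNNAA in 10.8% and CCGCCC in 35.7%. A match describes the letters only.

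Both chains of the interleukin-6 receptor were lower on every Med12 KO array than on any control array, on all 6 of their probe sets. Il6ra, the ligand-binding chain, was read by 2 probe sets, neither of which passed. Probe set 1452416_at had 65.5, 55.7 and 17 in Med12 KO cells, against 337.8, 462.6 and 835.3 in control cells. Its log2 difference of -3.18 (SE 0.46, 95% interval -4.32 to -2.04) was the largest of the 15 in size, with limma's adjusted p at 0.0547. Probe set 1422270_a_at had 32.0, 34.8 and 17.8 in Med12 KO cells, against 120.6, 124.0 and 325.9 in control cells (log2 difference -2.10, SE 0.40, 95% interval -3.09 to -1.12, adjusted p = 0.0933). On both probe sets control replicate 3 was the highest and Med12 KO replicate 3 the lowest. Without the dimmest 25% of probe sets, with the fit repeated on the remaining ones, both passed (limma adjusted p = 0.0128 and 0.0351). Over 17 alternatives 1452416_at passed in 4 and 1422270_a_at in 2. Neither passed with any 1 array left out (limma adjusted p = 0.108 to 0.155 and 0.0970 to 0.242). Over all settings the log2 difference of 1452416_at stayed between -3.64 and -2.41.

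Il6st, the signal-transducing chain, was read by 4 probe sets. Probe set 1437303_at had 24.1, 22.7 and 21.1 in Med12 KO cells, against 69.4, 79.9 and 97.7 in control cells. The signal fell by 1.34 on the log2 scale (SE 0.15, 95% interval -1.70 to -0.98; limma adjusted p = 0.0314). Probe set 1452843_at had 53.3, 64.5 and 74.5 in Med12 KO cells, against 164.6, 226.4 and 192.5 in control cells. It fell by 1.39 on the log2 scale (SE 0.17, 95% interval -1.81 to -0.97; limma adjusted p = 0.0405). These 2 standard errors were the smallest of the 15, and the probe sets ranked 142 and 217 by p-value among all probe sets. The Med12 KO signals of 1437303_at lay little above the medians of those arrays, which were 20.6, 21.3 and 16.5.

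The other Il6st probe sets lay in the same direction without passing. Probe set 1421239_at had 45, 146.6 and 146.1 in Med12 KO cells, against 273.3, 281.7 and 278.5 in control cells (log2 difference -1.33, SE 0.40, adjusted p = 0.201). Med12 KO replicate 1 stood below the other Med12 KO arrays there, while the control arrays were within a few units of each other. Probe set 1460295_s_at had 53.0, 72.4 and 87.2 in Med12 KO cells, against 217.4, 235.8 and 593.3 in control cells (log2 difference -1.94, SE 0.40, adjusted p = 0.105). Both were designed on the same source sequence, so they are not independent readings. Leaving out any 1 of the 6 arrays ended both Il6st calls, with adjusted p of 0.0809 to 0.126 for 1437303_at and 0.0924 to 0.137 for 1452843_at, while the log2 differences kept within -1.44 to -1.23 and -1.497 to -1.285. For 1437303_at, the adjusted p without Med12 KO replicates 1, 2 and 3 was 0.111, 0.125 and 0.126, and without control replicates 1, 2 and 3 it was 0.0868, 0.0926 and 0.0809. For 1452843_at, these were 0.118, 0.137 and 0.119 without Med12 KO replicates 1, 2 and 3, and 0.0924, 0.0994 and 0.105 without control replicates 1, 2 and 3. Median centring, quantile and loess gave -1.06, -1.09 and -1.11 for 1437303_at, in that order (adjusted p = 0.0425, 0.0641 and 0.0536). For 1452843_at the same settings gave -1.12, -1.25 and -1.31, and its call was lost under all 3 (adjusted p = 0.0577, 0.0664 and 0.0564). With 64 added before log2 in place of 16, the log2 difference of 1437303_at was -0.75 (adjusted p = 0.0432), and with 1 added it was -1.81 (adjusted p = 0.0771).

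The promoters of both genes are shown because the chains work as a pair and lay lower together. Il6ra is on the minus strand at chr3:89913147-89913446 and Il6st on the plus strand at chr13:112463820-112464119 of GRCm38.p6.
Il6ra: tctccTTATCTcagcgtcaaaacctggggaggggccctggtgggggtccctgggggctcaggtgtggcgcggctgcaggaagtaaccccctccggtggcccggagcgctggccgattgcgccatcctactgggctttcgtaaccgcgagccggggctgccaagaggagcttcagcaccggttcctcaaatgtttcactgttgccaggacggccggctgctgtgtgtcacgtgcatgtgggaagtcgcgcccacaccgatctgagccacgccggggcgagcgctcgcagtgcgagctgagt
Il6st: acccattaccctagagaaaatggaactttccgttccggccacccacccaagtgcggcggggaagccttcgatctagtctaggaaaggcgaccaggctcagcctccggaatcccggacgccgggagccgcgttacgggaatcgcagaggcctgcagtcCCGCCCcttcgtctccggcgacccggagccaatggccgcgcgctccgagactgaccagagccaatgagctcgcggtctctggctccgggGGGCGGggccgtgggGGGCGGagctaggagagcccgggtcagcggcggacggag
The Il6ra window held 1 AGATAA match, on the opposite strand at position -245, and the Il6st window held 3 CCGCCC matches at positions -93, -4 and 12. Their GC content was 66.0% and 68.3% in that order, against a median of 52.7% over all windows.

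Csf3r, the receptor for G-CSF that drives neutrophil production, was lower on every Med12 KO array but did not pass. Its signals were 80.9, 96.3 and 38.3 in Med12 KO cells, against 270, 285.4 and 304.3 in control cells. The mean was 71.8 ± 30.04 in Med12 KO cells and 286.6 ± 17.2 in control cells (SD, n = 3 each). The log2 difference was -1.85 (SE 0.29, 95% interval -2.55 to -1.15, limma adjusted p = 0.0617). It passed in 4 of 17 alternatives. These were a trended and robust variance prior (0.0377), median centring (0.0400), and leaving out the dimmest 25% (0.0241) or 50% (0.0203) of probe sets. Among those it missed were quantile (0.0533) and loess (0.0599) normalization and leaving out any 1 array (0.104 to 0.149). Markers of granulocyte-monocyte progenitors lay in the same direction: 7 of 7 were lower, 5 passed as lower (Mpo, Elane, Prtn3, Ctsg and Irf8), against 0.638% of all genes, and none was at 0. Their summed signal was 891.2 to 1719 in Med12 KO cells and 8170.6 to 15087.4 in control cells. Their part in the Csf3r values was not tested. Cebpa, a myeloid factor known to act on the Csf3r gene, had 121.4, 133.6 and 68.9 in Med12 KO cells, against 536.7, 252.1 and 506.6 in control cells (log2 difference -1.82, SE 0.36, adjusted p = 0.0971). The Csf3r promoter, on the plus strand at chr4:126024409-126024708 of GRCm38.p6, is shown for comparison with that of Epor, whose probe set differed in the opposite direction.
Csf3r: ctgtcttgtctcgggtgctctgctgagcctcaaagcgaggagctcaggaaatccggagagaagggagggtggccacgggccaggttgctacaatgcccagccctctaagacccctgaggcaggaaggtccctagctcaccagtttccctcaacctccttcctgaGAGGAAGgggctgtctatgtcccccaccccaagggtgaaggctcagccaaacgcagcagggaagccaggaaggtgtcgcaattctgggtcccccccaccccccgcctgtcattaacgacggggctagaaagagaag
It held 1 GAGGAAG match, at position -86, and no AGATAA or TTGCNNAA match in these 300 bases.

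**Figure D2:**
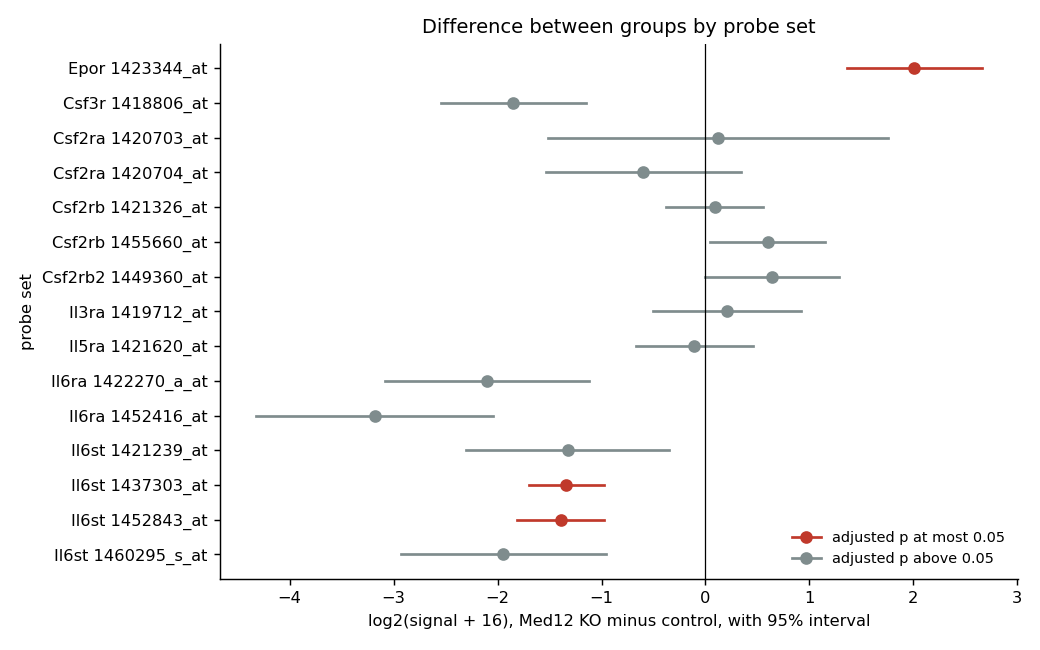
Difference in log2(signal + 16), Med12 KO minus control, for each receptor chain probe set, with its 95% interval from limma. Probe sets with an adjusted p of at most 0.05 are in red: Epor at 2.01 and the Il6st probe sets at -1.34 and -1.39, while Csf3r, Il6ra and the remaining Il6st intervals also lie below 0 and those of Csf2ra, Il3ra and Il5ra include 0.

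The chains that receive GM-CSF, interleukin-3 and interleukin-5 did not pass in either direction on any of their 7 probe sets. Csf2rb, the beta chain common to all 3 receptors, was read by 2 probe sets. On 1455660_at the signals were 778, 579.9 and 1018.5 in Med12 KO cells, against 527.5, 449.6 and 540.1 in control cells (log2 difference 0.60, SE 0.23, 95% interval 0.05 to 1.15, limma adjusted p = 0.283). The groups did not overlap there. On 1421326_at they were 411.9, 400.2 and 416.2 in Med12 KO cells, against 295.1, 405.5 and 473.3 in control cells, and the Med12 KO values lay inside the control range (log2 difference 0.09, 95% interval -0.38 to 0.55). That value turned to -0.094 without control replicate 1.

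Csf2rb2, which encodes a second beta chain that mice use for interleukin-3 alone, had 238.5, 190.2 and 253.2 in Med12 KO cells, against 159.5, 91.0 and 181.3 in control cells. All 3 Med12 KO values were higher than the control values, but the interval of the log2 difference included 0 (0.64, SE 0.26, 95% interval -0.0020 to 1.29, adjusted p = 0.320). Csf2rb and Csf2rb2 lie next to each other on chromosome 15 with 1 annotated gene, a microRNA, between them. They are close paralogs, so probes can read both and the split of signal between them is uncertain.

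By the SD of the deposited signals, not of the log2 values, the private alpha chains varied more between control arrays than between Med12 KO arrays on 3 of 4 probe sets. Il3ra, which binds interleukin-3, had 118.3, 110.7 and 122.1 in Med12 KO cells, against 161, 89.8 and 65.6 in control cells (log2 difference 0.21, 95% interval -0.50 to 0.92, adjusted p = 0.801). Its Med12 KO values lay inside the control range, and the difference was -0.042 without control replicate 3. Csf2ra, which binds GM-CSF, had 190.2, 96.0 and 104.3 in Med12 KO cells, against 297.6, 117.1 and 35.3 in control cells on 1420703_at. Its log2 difference was 0.13 with a 95% interval of -1.51 to 1.76, the widest of all 15, and turned to -0.54 without control replicate 3, -0.15 without Med12 KO replicate 1 and -0.019 with array weights. The other Csf2ra probe set, 1420704_at, designed on the same source sequence, lay under the array median on 2 Med12 KO arrays and 1 control array and had a log2 difference of -0.60 (95% interval -1.54 to 0.34). Il5ra, which binds interleukin-5 on eosinophils and B-1 cells, had 24.2, 23.9 and 10.2 in Med12 KO cells, against 15, 23.2 and 27.1 in control cells. It lay under the array median on 1 Med12 KO array and 2 control arrays, so its log2 difference of -0.11 (95% interval -0.67 to 0.46) rests on dim signals. Its sign turned with each rescaling of the arrays, to 0.17 by median centring, 0.13 by quantile and 0.14 by loess normalization. These intervals leave room for changes in either direction, and a p that missed the threshold does not show equal levels.

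Of the 9 chains, only Epor and Il6st therefore had a probe set past the threshold. The receptors that pair with themselves differed in opposite directions, with Epor at 2.01 and Csf3r, which did not pass, at -1.85. The 6 probe sets of the interleukin-6 receptor lay between -3.18 and -1.33, those of the beta chains between 0.09 and 0.64. Median centring, quantile and loess normalization each gave 7 higher and 8 lower probe sets of 15, against 6 higher and 9 lower as reported, the one that turned being Il5ra. With those scalings 4, 0 and 0 of the 15 passed.

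Genes whose log2 values followed Epor most closely over the 6 arrays were sought among 7871 genes with a mean signal of at least 100. The 5 of highest Pearson correlation were Ccng1 (0.998), the G protein subunit gene Gna14 (0.996), the mitotic kinase gene Cdk1 (0.992), the mitochondrial transporter gene Abcb10 (0.991) and Ces2g (0.990). Their log2 differences were 0.50, 1.55, 1.10, 1.58 and 1.96, and those of Gna14, Abcb10 and Ces2g passed (adjusted p = 0.0405, 0.0314 and 0.0303). For Il6st (1437303_at) the 5 genes were Ppp3ca, a calcineurin catalytic subunit (0.997), Spata13 (0.996), the long non-coding RNA gene Tug1 (0.992), Wfdc17 (0.992) and Cox7a2l (0.989), with log2 differences of -0.27, -1.85, -0.42, -3.57 and -0.46. Of these Spata13 and Wfdc17 passed (adjusted p = 0.0199 and 0.0314). The correlations are descriptions over 6 arrays that fall into the same 2 groups.

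The partners of the receptors were followed on 50 of 60 listed genes, with 1 probe set for each (the brightest on average), and 2 passed, both higher, against 0.352% higher and 0.638% lower among all genes. Their median log2 difference was 0.02, against -0.05 over all genes. None of 8 ligand genes passed. Most ligand signals were dim: Csf3, Csf2, Il3, Il5, Il6 and Il11 lay under the array median on all 6 arrays. Il6 itself had 15.8, 10.6 and 6.4 in Med12 KO cells, against 5.7, 0.3 and 0.2 in control cells (log2 difference 0.58, adjusted p = 0.243), all dim. Csf2 (-0.57, adjusted p = 0.366) and Lif (0.72, adjusted p = 0.460) were the next by p-value. Of 6 related receptors 0 passed limma's test and 0 had an unadjusted p under 0.05, against 18.1% of all genes. Il27ra, a partner of Il6st, was at 0.71 (adjusted p = 0.432), Lifr, another partner, at -0.66 (0.527) and Cntfr at 0.21 (0.662).

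Of 7 kinase and STAT genes, which relay the receptor signals, 0 passed limma's test and 2 had an unadjusted p under 0.05, again against 18.1% of all genes. Jak2, the kinase that Epor and the beta chains use, had 801.6, 829.9 and 937.1 in Med12 KO cells, against 646.1, 656.0 and 390.5 in control cells, with no overlap (log2 difference 0.62, adjusted p = 0.272). Jak3 had 71.7, 50.6 and 31.4 in Med12 KO cells, against 91.3, 110.8 and 79.6 in control cells (-0.74, adjusted p = 0.244). Jak1, a kinase of gp130 receptors, was at 0.19 (adjusted p = 0.721). Stat3, Stat5a and Stat5b were at 0.01, -0.11 and 0.10. The 4 Stat3 probe sets ran from -0.94 to 0.01, so that gene was not read alike by all of them.

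Of 8 adaptor and phosphatase genes 0 passed limma's test, and 5 had an unadjusted p under 0.05 (18.1% of all genes). Gab2, a docking protein of beta chain receptors, had 547.7, 558.6 and 720.7 in Med12 KO cells, against 325.4, 267.8 and 350.3 in control cells (log2 difference 0.92, SE 0.17, adjusted p = 0.0903). The ubiquitin ligase gene Cbl, which ends receptor signals, was at -0.37 (adjusted p = 0.248) and the phosphatase gene Ptpn11 at 0.32 (0.267), although 1 of its 3 probe sets had the opposite sign.

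Of 12 feedback and target genes 0 passed limma's test and 4 had an unadjusted p under 0.05 (18.1% of all genes). Socs2, an inhibitor induced by STAT5, had 200.7, 206.7 and 199.3 in Med12 KO cells, against 48.1, 114.2 and 106.3 in control cells (log2 difference 1.12, adjusted p = 0.153), with 2 of its 6 probe sets of opposite sign. Cish, a direct STAT5 target, had 352.5, 242.0 and 172.4 in Med12 KO cells, against 495.1, 446.6 and 114.2 in control cells, and the groups overlapped (-0.26, adjusted p = 0.887). The cyclin gene Ccnd3 was at 0.81 (adjusted p = 0.103), with 1 of 3 probe sets at -0.91. Trib3 was at -1.09 (adjusted p = 0.107). Tfrc, the transferrin receptor gene, was at 1.08 (adjusted p = 0.395), with Med12 KO replicate 3 at 2141.8 and the other Med12 KO arrays at 821.6 and 746.5; 1 of its 3 probe sets passed.

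The transcription factors known to direct these receptor genes held both calls among the partners. Of 9 genes Gata1 and Klf1 passed as higher, 0 passed as lower and 7 did not pass. By sign 4 were higher and 5 lower. On 7 of 9 the groups did not overlap, 4 higher and 3 lower, against 23.4% of all genes (9.85% higher and 13.5% lower). Cebpa was the next by p-value. Spi1, which encodes PU.1, had 196.4, 243.1 and 133.7 in Med12 KO cells, against 365.9, 350.6 and 291.9 in control cells (log2 difference -0.80, adjusted p = 0.188), and Runx1 was at -0.49 (adjusted p = 0.193). Gata2 (0.28), Lmo2 (-0.09), Tal1 (0.78) and Cebpb (-1.01) completed the list.

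**Figure D3:**
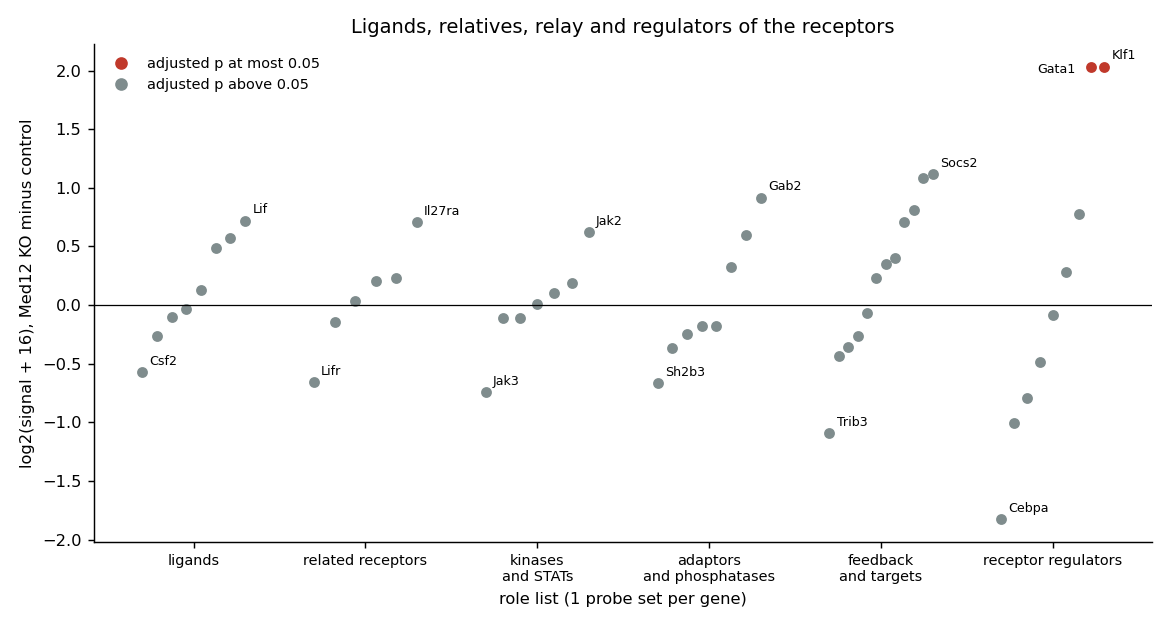
Difference in log2(signal + 16), Med12 KO minus control, for 50 genes that act with the receptors, 1 point per gene, sorted within each role list, with those of adjusted p at most 0.05 in red. Gata1 and Klf1, both at 2.03, are the red points, and the lowest point is Cebpa at -1.82.

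Other marker lists were read on the same arrays, and their calls stand against 0.352% higher and 0.638% lower among all genes. The 6 early lymphoid markers were all lower, with a summed signal of 97.3 to 216.7 in Med12 KO cells and 3268.1 to 4090.2 in control cells, and 4 of them passed as lower. The 5 eosinophil markers summed to 621 to 787.8 in Med12 KO cells and 945.1 to 2486.3 in control cells, with Prg2 and Prg3 passing as lower. Of these 5, 3 were lower and 2 higher: Siglecf, which made up most of the Med12 KO sum, had 607.5, 639.4 and 749.8 in Med12 KO cells, against 312.9, 374.8 and 959 in control cells (log2 difference 0.44, adjusted p = 0.686), and Ccr3 was at 0.045. The 7 mature neutrophil markers summed to 61.2 to 491.5 in Med12 KO cells and 576 to 1177.5 in control cells, with none passing. The 7 macrophage markers summed to 59.6 to 107.0 in Med12 KO cells and 122 to 224.6 in control cells. Of these 7, 6 were lower and 1 higher (Marco, log2 difference 0.06). C1qa passed as lower, but lay under the array median on all 6 arrays. It had 2.8, 1.4 and 1.2 in Med12 KO cells, against 22.5, 19 and 18.4 in control cells. The 6 stem cell markers summed to 705.7 to 801.5 in Med12 KO cells and 1048.8 to 1998.2 in control cells, with Hlf passing as lower. Hlf gave the largest control signals of that list (540.1, 932.8 and 461.7), against 100.3, 137 and 139.2 in Med12 KO cells. Of the 6 markers 5 were lower and 1 higher. The higher one was Slamf1 (log2 difference 0.49, limma adjusted p = 0.642), with all 3 of its probe sets higher. The 8 megakaryocyte markers summed to 5082.5 to 6739.1 in Med12 KO cells and 3178.3 to 4656 in control cells. By sign all 8 were higher, and Itga2b passed. The groups did not overlap on 3 of the 8, all higher, against 9.85% higher among all genes. Pf4, the brightest of the list, was at 0.10. Gp6, under the array median on all 6 arrays, was at 0.03. The 8 mast cell and basophil markers summed to 2286.9 to 2594.5 in Med12 KO cells and 1357.8 to 1807.3 in control cells. Cma1 passed as higher. Of these 8, 7 were higher and 1 lower. The lower one was Mcpt8, with 20.7, 181.3 and 24.7 in Med12 KO cells, against 176.5, 212.7 and 207.8 in control cells (log2 difference -1.69, limma adjusted p = 0.298). The 5 B cell markers summed to 21.0 to 43.2 in Med12 KO cells and 72.1 to 168.1 in control cells. The 4 T and NK cell markers summed to 1103.7 to 1570.5 in Med12 KO cells and 1336.8 to 1848.9 in control cells. Of these 4, 2 were higher and 2 lower. Nkg7, which made up most of the sum on every array, had a log2 difference of 0.18. Cd3g was at 0.09, Gzma at -1.69 and Ccl5 at -1.70. The 4 lineage antigens (Cd3e, Itgam, Cd4 and Cd8a) summed to 41.7 to 114.8 in Med12 KO cells and 103.3 to 174.8 in control cells. None of these B cell, T and NK cell or lineage antigen markers passed. No marker of any list was at 0 on any array, but several were dim. Of the mature neutrophil markers 5 of 7, and of the B cell markers 5 of 5, lay under the array median on all 3 Med12 KO arrays. On all 6 arrays this held for 2 and 2 of them. The part of these cell types in the Il6ra, Il6st, Csf3r and Epor values was not tested.

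**Figure D4:**
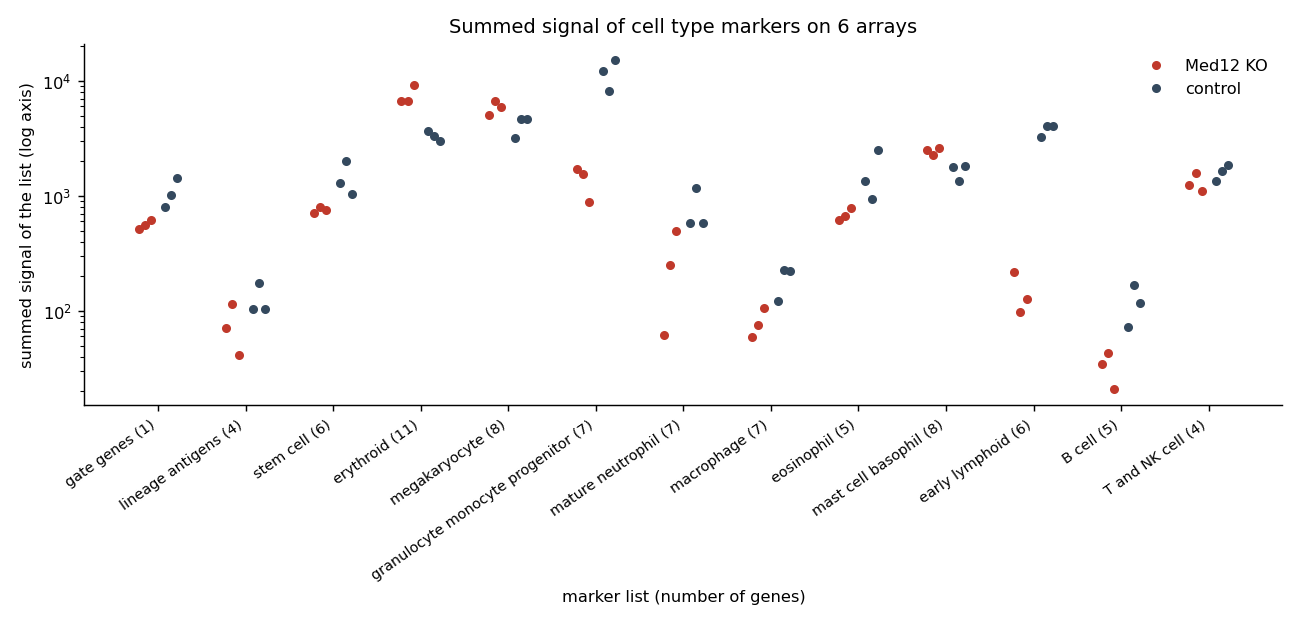
Summed signal (linear intensity, log axis) of each marker list on each array, Med12 KO in red on the left and control in dark blue on the right, with the number of genes in brackets. Erythroid sums are 6629.7 to 9255.5 in Med12 KO cells and 2998.8 to 3671 in control cells, and granulocyte-monocyte progenitor sums are 891.2 to 1719 in Med12 KO cells and 8170.6 to 15087.4 in control cells.

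How close the receptor calls stood to the threshold is shown by their adjusted p under each setting. Leaving out any 1 array ended all 3 calls, and 0 to 10 of all probe sets tested then passed. A filter on the dimmest 25% of probe sets raised the receptor count to 7 of 15, adding Csf3r, both Il6ra probe sets and 1460295_s_at of Il6st. The count over all probe sets rose too, from 343 of 45037 to 715 of 33777. Without the dimmest 50% the counts were 7 of 14 and 756 of 22518. With 3 arrays per group an exact permutation test cannot give a two-sided p under 0.1, so any smaller p rests on the assumptions of the limma model. With 4 residual and 1.96 prior degrees of freedom, that model used each probe set's own spread and the spread shared across probe sets.

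**Figure D5:**
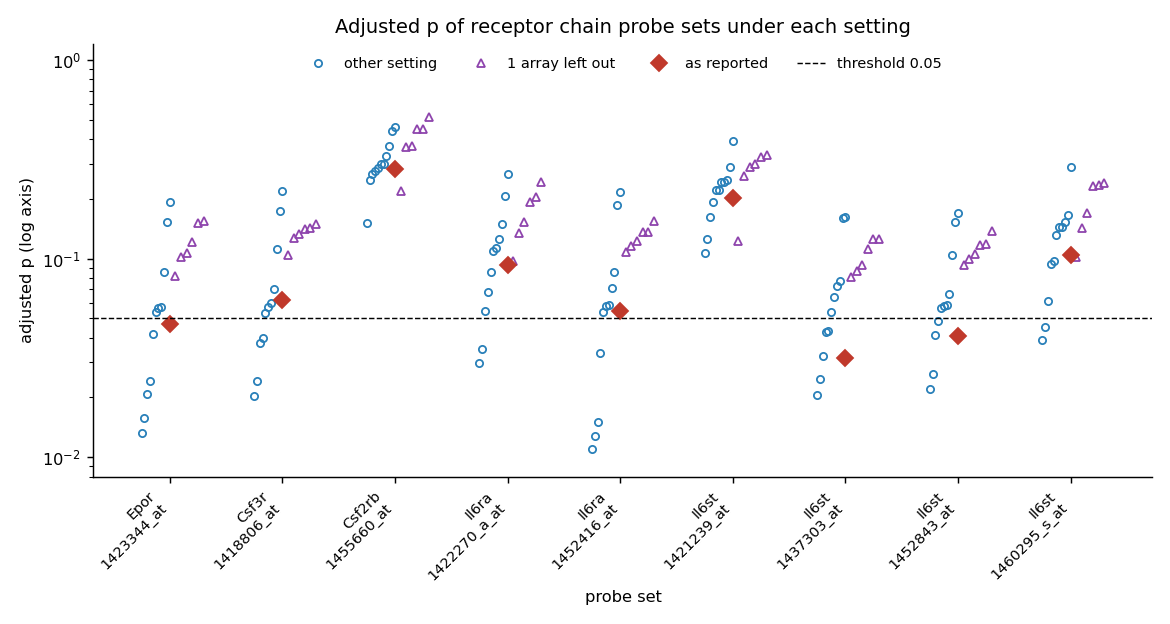
Adjusted p (log axis) of the 9 receptor chain probe sets with an unadjusted p under 0.05, as reported (red diamonds), with 1 array left out (triangles) and under the other settings (circles), and the threshold of 0.05 as a dashed line. All triangles lie above the line, and circles lie on both sides of it for Epor, Csf3r, Il6ra and 3 of the 4 Il6st probe sets.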

How the data were processed

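The authors deposited 1 signal intensity per probe set and array on a linear scale; all 6 value columns were used (0 left out). RMA is listed, with no version, per the submitters' processing notes. The deposited intensities, however, are linear, hold zeros and have a mean of 150.0 on every array after trimming 2% at each end, so the method that made them is not known here. RNA was extracted and amplified by the Ovation system, per the labels' protocols.

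Of 45101 probe sets 64 controls were left out. Genes were named from GEO's platform annotation, which can be old. There 34945 tested probe sets have 1 symbol, 932 several and 9160 none. Groups were compared on log2(signal + 16) in limma 3.58.1 (lmFit, then eBayes) under R 4.3.3, two-sided, with 4 residual and 1.96 prior degrees of freedom, and adjusted over 45037 probe sets. Adding 16 understates changes of dim genes. Members, lists, threshold and tests were chosen with earlier results of these data known. Named genes were all member probe sets, partner genes past the threshold or among the 3 of lowest p in their list, and the 5 most correlated genes of the members of lowest p in each direction, and marker genes past the threshold or in the sort. Il3, Il5, Il11, Csf3, Stat3, Stat5a, Stat5b, Cish, Tfrc, Spi1, Runx1, Gata2, Lmo2, Tal1, Cebpb and the markers Slc4a1, Epb42, Ermap, Alas2, Slamf1, Siglecf and Ccr3 were added after their values were seen. The markers Mcpt8, Cd3g, Nkg7, Gzma, Ccl5, Marco, Pf4 and Gp6 were likewise added after their values were seen. A probe set was called dim on an array where it lay under that array's median. Means ± SD are of the deposited signals. Promoters came from RefSeq (GRCm38.p6) and matched 8 of 9 members. Of 87 marker entries 79 matched the annotation. The steps were tested on simulated data. The number of arrays limits the precision.

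The settings varied were the variance prior (trended and robust), weights per array, a replicate block, 3 normalizations, 1 or 64 in place of 16, filters on the dimmest 25% and 50%, an unmoderated linear model test, leaving out each array, 1 probe set per receptor gene and the mean of all probe sets per partner gene.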

Additional observations from a re-analysis of the deposited data

Results flagged for a closer look

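A probe set assigned to both Csf2rb2 and Csf2rb, and so outside the rule for receptor chains, carried signal that was higher in every Med12 KO sample than in any control sample. It had 452.7, 450.5 and 444.3 in Med12 KO cells, against 281.5, 227.3 and 359.9 in control cells, a log2 difference of 0.63 (SE 0.18, 95% interval 0.18 to 1.08; limma adjusted p = 0.188). It did not pass the threshold. Its difference lay near those of Csf2rb 1455660_at (0.60) and Csf2rb2 1449360_at (0.64). It shares its source accession with Csf2rb 1421326_at (0.09), whose groups overlapped.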

How the results depend on the processing

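Under 17 alternatives, or 16 for the dim Il5ra, the log2 differences of Epor, Csf3r, Csf2rb2, both Il6ra, all 4 Il6st, Csf2rb 1455660_at and Csf2ra 1420704_at probe sets kept their direction. The direction turned for Csf2ra 1420703_at with array weights (-0.019), without Med12 KO replicate 1 (-0.15) and without control replicate 3, over a range of -0.54 to 0.77 with 1 array left out. It turned for Csf2rb 1421326_at without control replicate 1 (range -0.094 to 0.23) and for Il3ra without control replicate 3 (range -0.042 to 0.52). It turned for Il5ra by median centring (0.17), quantile (0.13) and loess normalization (0.14), and without Med12 KO replicate 3 (range -0.24 to 0.098). The 343 probe sets called became 693 after median centring, 42 with an offset of 1, 1 with the unmoderated test, 715 and 756 without the dimmest 25% and 50%, and 0 to 10 with 1 array left out. The 3 receptor probe sets called became 0 with quantile or loess normalization, an offset of 1 or the unmoderated test, 7 under either filter, 1 (Epor) with 1 probe set per gene, and 0 to 0 with 1 array left out. The filters repeat the whole fit on fewer probe sets, so the variance prior and the number of tests both change. The cause of these changes was not tested. In limma fits with 0 receptor calls, 8 to 10 of the 15 still had an unadjusted p under 0.05. The 2 partner genes called became 1 with quantile normalization, 0 with loess, offsets of 1 or 64 and the unmoderated test, 3 with median centring, either filter or probe sets averaged per gene, and 0 to 0 with 1 array left out. Median centring moved the median log2 difference of all probe sets to 0.20, against -0.07 as reported, and put Epor at 2.28. With a replicate block the counts were 0 probe sets (6752 with an unadjusted p under 0.05), 0 receptor probe sets and 0 partner genes. The block left the log2 difference of Epor at 2.01 (limma adjusted p = 0.153). Deviations of same-numbered samples correlated at 0.019, 0.019 and 0.0019. With 3 samples per group these values cannot decide whether same-numbered samples are paired, and the labels do not say what the number means. Dim probe sets such as Il5ra limit what can be detected.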
